A study of Mus musculus with 16 samples.

Results

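The 10 genes described here, Lipf, Pgc, Tff1, Tff2, Gkn1, Gkn2, Gkn3, Sox2, Anxa10 and Ctse, are typical of the stomach and were read in cells sorted from mouse intestinal tumours. They are 10 of the 36528 NCBI Gene IDs in each library's table, and all 10 were among the 18072 that passed a filter on low counts. They were chosen because their levels in these libraries were already known, so their levels and differences are given as a description, with estimates and errors and without tests. Tests are given for other stomach and intestinal genes, which the choice of the 10 did not use. The lists of those genes were also drawn up with earlier results of these data known. Their counts and p-values are therefore not independent evidence.

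The 16 libraries form 4 groups of 4: GFP+ and GFP- cells, parted by flow cytometry, from tumours labelled AKVPL and from tumours labelled AKVPSL. The letters are not spelled out in the labels. As background, mouse colorectal models named this way combine several tumour-driving changes, Apc and Trp53 among them, with a villin promoter driving Cre in the gut epithelium and a GFP reporter at Lgr5, and S stands for a change in Smad4, so both genotypes share all but S. The sources used here give no age, sex or number of animals, do not say whether a genotype rests on 1 clone, and name no gate other than GFP. Replicates are not stated to come from separate animals or tumours, so every p-value speaks only of the spread among the libraries at hand, and part of that spread may be technical.

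The lining of the stomach is built from glands with a division of labour. Pit cells at the surface secrete trefoil factor 1 and gastrokines that coat and protect the lining, neck cells below them secrete trefoil factor 2 and a gland mucin, and chief cells at the base release digestive enzymes such as gastric lipase and pepsinogen. In the embryo SOX2 marks the foregut, including the future stomach, while CDX2 directs the intestine. Genes of the stomach, ANXA10 among them, are also known from serrated tumours of the human colon.

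Total counts ran from 10.9 to 41.6 M per library (M, 1e6 counts), with group medians from 23.2 to 31.2 M. Levels are in CPM, counts per 1e6 after TMM scaling. Lgr5, the gene behind the sort, had a GFP+ over GFP- difference of 2.18 ± 0.16 log2 units (SE) in AKVPL and 1.99 ± 0.15 in AKVPSL (edgeR adjusted p = 1.88e-08 and 1.17e-07). The level of Smad4 was higher, not lower, under the AKVPSL label (247.4 ± 26.2 against 152.6 ± 4.24 CPM in GFP+ cells, SD, n = 4). Counts over a whole gene do not show a small edit or a partial deletion, so Smad4 does not check the labels, by which the genotypes are called. Titles name the colon for all 16 libraries, while the tissue field reads small intestine for 15 and colon for 1 (AKVPSL GFP- replicate 1). Of the intestinal markers, Vil1 (276.5 to 411.0 CPM as group means) and Gpa33 (261.8 to 305.9 CPM) were present in every group, and Cdx1 was at or near 0 in all of them. AKVPL GFP- replicate 2 stood apart in several low-level genes, so results that rest on it are also given without it.

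The label of a stomach programme was checked against markers of the cell types of the stomach. The summed level of the 10 genes, most of it from Gkn3 and Ctse, was highest in AKVPL GFP+ (1234 ± 61.5 CPM, SD, n = 4). It was 698.7 ± 78.7 CPM in their GFP- counterparts, and for AKVPSL 549.4 ± 133.1 CPM among GFP+ and 336.3 ± 35.6 CPM among GFP- cells. Without those 2 genes the order of the groups was different: AKVPSL GFP- came highest (136.8 ± 36.7 CPM), then AKVPL GFP+ (101.1 ± 21.6), AKVPSL GFP+ (79.9 ± 18.2) and AKVPL GFP- (57.1 ± 9.19). Several defining genes of the adult stomach were at or near 0: Pga5, a pepsinogen of chief cells, Atp4b, the small subunit of the acid pump of parietal cells, Chia1, an acid chitinase, and Sst, the hormone of D cells, had group means of at most 0.0242 CPM. Barx1, a regulator of the stomach mesenchyme, was at 0 in all 16 libraries, but a gene of mesenchyme does not check the label for epithelial cells. Other listed stomach genes were present. Muc6 had a mean of 125.7 CPM and Atp4a of 7.88 CPM in AKVPL GFP+, and Cldn18 of 27.4 CPM and Cblif of 11.5 CPM in AKVPSL GFP+. Of the 52 other stomach genes listed, 2 to 5 were at 0 in a whole group. With listed genes both present and absent, the 10 genes are called gastric by where they are known to be expressed, and no gastric cell type is assigned to the libraries.

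Promoters are shown for 2 sets of genes whose levels are compared below. Lipf and Pgc encode enzymes of the same cell type, the chief cell, and had opposite patterns between the genotypes. Gkn1, Gkn2 and Gkn3 are neighbours on chromosome 6 with unlike levels. The RefSeq promoter table for GRCm38.p6 held 7 of the 10 genes, each with the 250 bases before and 50 bases after the start site, while Tff1, Tff2 and Ctse were not matched. Capitals mark short motifs that were searched for on both strands. The motif AGATAA is known from factors of the Gata family. Factors of the Cdx family are known for TTTATG. Those of the Sox family are known for ACAATG. For the Fox family the motif searched was TGTTTAC. The motif TATAAA is the core promoter box. The windows are chr19:33960998-33961297 (Lipf, plus strand), chr17:47726592-47726891 (Pgc, plus strand), chr6:87350866-87351165 (Gkn1, minus strand), chr6:87373115-87373414 (Gkn2, plus strand) and chr6:87388886-87389185 (Gkn3, minus strand).
Lipf: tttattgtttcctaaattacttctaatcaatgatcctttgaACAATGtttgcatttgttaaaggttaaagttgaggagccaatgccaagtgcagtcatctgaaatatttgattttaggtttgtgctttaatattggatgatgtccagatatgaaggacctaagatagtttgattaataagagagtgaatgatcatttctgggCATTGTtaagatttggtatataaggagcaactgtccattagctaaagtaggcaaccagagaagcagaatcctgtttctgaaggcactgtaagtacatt
Pgc: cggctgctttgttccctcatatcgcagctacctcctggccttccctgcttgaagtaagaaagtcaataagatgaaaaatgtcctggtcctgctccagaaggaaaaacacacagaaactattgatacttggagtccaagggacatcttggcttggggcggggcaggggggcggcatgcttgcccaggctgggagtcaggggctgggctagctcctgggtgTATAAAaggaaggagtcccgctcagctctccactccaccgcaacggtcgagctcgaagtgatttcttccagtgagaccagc
Gkn1: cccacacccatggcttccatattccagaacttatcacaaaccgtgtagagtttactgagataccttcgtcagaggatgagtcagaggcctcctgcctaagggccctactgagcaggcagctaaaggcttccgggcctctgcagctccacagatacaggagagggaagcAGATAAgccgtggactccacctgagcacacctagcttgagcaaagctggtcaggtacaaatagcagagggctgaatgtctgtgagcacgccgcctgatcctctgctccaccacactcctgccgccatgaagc
Gkn2: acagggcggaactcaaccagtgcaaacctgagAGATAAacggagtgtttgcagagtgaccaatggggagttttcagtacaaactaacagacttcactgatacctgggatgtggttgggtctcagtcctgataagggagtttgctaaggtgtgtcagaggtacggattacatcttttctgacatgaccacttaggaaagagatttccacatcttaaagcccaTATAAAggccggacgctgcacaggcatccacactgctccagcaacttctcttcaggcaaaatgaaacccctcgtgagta
Gkn3: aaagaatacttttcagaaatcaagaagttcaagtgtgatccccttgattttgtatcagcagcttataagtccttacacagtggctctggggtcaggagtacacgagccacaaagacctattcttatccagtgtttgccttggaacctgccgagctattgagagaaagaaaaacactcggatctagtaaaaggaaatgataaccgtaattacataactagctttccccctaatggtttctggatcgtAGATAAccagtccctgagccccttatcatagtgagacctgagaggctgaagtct
Lipf held ACAATG letters at 209 bases and, on the other strand, at 48 bases before the start site, and 12.6% of the 32851 promoters in the table hold them. Pgc held TATAAA at 31 bases before the start (13.6% of all promoters). AGATAA stood at 82 bases before the start in Gkn1, at 218 in Gkn2 and at 4 in Gkn3, and 11.2% of all promoters hold it. Gkn2 also held TATAAA, as did Anxa10 (32 bases before the start), and the Sox2 window held none of the searched letters. The CDX letters (11.9% of all promoters) and the FOX letters (3.6%) were in none of the 7 windows. No motif overlapped another, and a match of letters says nothing of binding.

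Lipf, which encodes gastric lipase (Gene ID 67717, GRCm38 chromosome 19, 33961248 to 33976813), was read in AKVPL alone. Its levels in AKVPL GFP+ replicates 1 to 4 were 15.2, 16.1, 45.1 and 22.2 CPM, and in AKVPL GFP- they were 10.1, 7.64, 22.4 and 16.9 CPM. In AKVPSL GFP- all 4 libraries were at 0, and in AKVPSL GFP+ the only read was 1 count in replicate 4 (0.0411 CPM). Every AKVPL library thus lay above every AKVPSL library. Summed over a group, 1 count in AKVPSL GFP+ stood against 2607 in AKVPL GFP+, a ratio of 2932-fold with a 95% exact counting interval of 525.7 to 115832. In GFP- cells 0 counts stood against 1158, so Lipf was at least 433.9-fold lower in AKVPSL, taking 3 counts summed across the 4 libraries as the floor. The interval and the floor cover counting error only. Within AKVPL the sorts overlapped, with a log2 difference of GFP+ over GFP- of 0.79 ± 0.39 (SE). In bulk samples such as these, fewer cells that express a gene and less RNA per cell cannot be told apart.

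Pgc, which encodes pepsinogen C, the precursor of a protein-digesting enzyme (Gene ID 109820, chromosome 17, 47726842 to 47734478), went the other way between the genotypes. In AKVPL its levels were 1.24, 0.772, 1.4 and 1.86 CPM in GFP- replicates 1 to 4 and 3.88, 8.07, 15.6 and 5.76 CPM in GFP+. In AKVPSL they were 18.2, 22.1, 17.6 and 16.1 CPM in GFP- and 46.9, 42.6, 47.4 and 56.9 CPM in GFP+. The 4 groups did not overlap anywhere, and their order was AKVPL GFP-, AKVPL GFP+, AKVPSL GFP-, AKVPSL GFP+. The genotype difference, AKVPSL over AKVPL, was 2.54 ± 0.32 log2 units in GFP+ cells and 3.88 ± 0.38 in GFP- cells. The sort difference, GFP+ over GFP-, was 2.72 ± 0.37 in AKVPL and 1.39 ± 0.30 in AKVPSL. AKVPL GFP+ replicate 3 was the highest AKVPL library for both Pgc and Lipf.

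Ctse encodes cathepsin E, an aspartic protease of pit cells that antigen-presenting cells also make (Gene ID 13034, chromosome 1, 131638314 to 131675507). It was abundant in AKVPL, at 736.6, 648.9, 561.3 and 634.4 CPM in GFP+ replicates 1 to 4 and 420.6, 366.4, 392.4 and 315.8 CPM in GFP-. In AKVPSL it stood at 6.56, 8.13, 24.4 and 32.8 CPM in GFP+ and 22.4, 17.2, 27.8 and 40.7 CPM in GFP-. The lowest AKVPL library was several times above the highest AKVPSL library. Between genotypes Ctse was lower in AKVPSL by log2 differences of -5.18 ± 0.48 in GFP+ cells and -3.79 ± 0.45 in GFP- cells. GFP+ libraries lay above GFP- libraries in AKVPL (0.79 ± 0.40) and overlapped with them in AKVPSL (-0.60 ± 0.42), and the AKVPSL GFP+ libraries themselves spanned a wide range. A list of 10 leukocyte genes had summed levels of 3364 to 6252 CPM over the AKVPL GFP- libraries and 355.1 to 935.9 CPM over the GFP+ ones. For AKVPSL the sums were 544.7 to 2394 CPM (GFP-) and 43.8 to 208.7 CPM (GFP+). Between genotypes 6 of the 9 leukocyte genes tested were lower in AKVPSL in each sort (edgeR adjusted p under 0.05). Of all genes, 28.1% were lower in GFP+ cells and 30.7% in GFP- cells. The part of leukocytes in the Ctse differences, between sorts or between genotypes, was not tested.

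**Figure D1:**
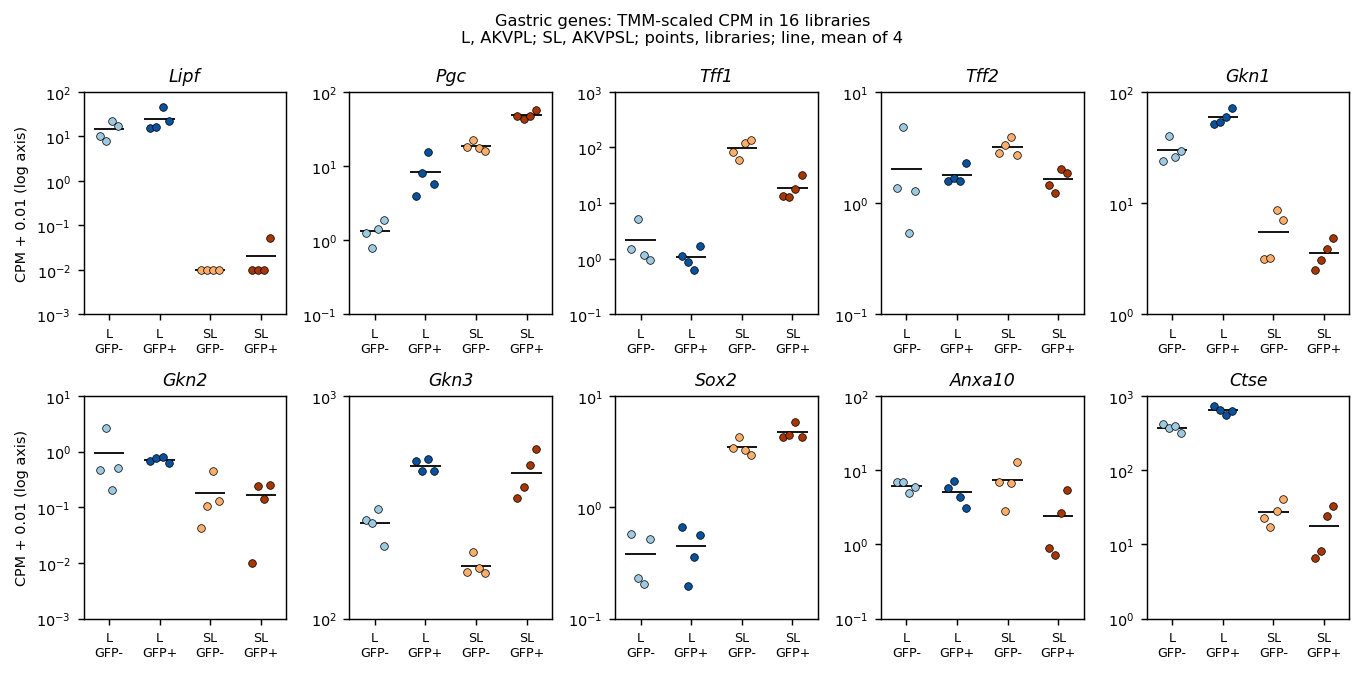
Levels of the 10 gastric genes in CPM plus 0.01 on log axes, by group (L, AKVPL; SL, AKVPSL), with a point per library and a line at the mean of 4. Pgc, Tff1 and Sox2 sit higher in both AKVPSL groups, Lipf, Gkn1 and Ctse sit lower there, and Gkn3 is high in all 4 groups.

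Tff1 encodes trefoil factor 1, a small secreted protein of pit cells (Gene ID 21784, chromosome 17, 31161395 to 31165060). In AKVPL it was low, at 1.12, 0.865, 0.625 and 1.72 CPM in GFP+ replicates 1 to 4 and 1.49, 5.07, 1.16 and 0.931 CPM in GFP-. In AKVPSL it stood at 13.2, 12.9, 17.7 and 31.9 CPM in GFP+ and at 83.7, 59.3, 117.6 and 133.6 CPM in GFP-. All AKVPSL libraries lay above all AKVPL libraries, and AKVPSL GFP- lay above AKVPSL GFP+. The log2 difference between genotypes was 4.17 ± 0.54 in GFP+ cells and 5.41 ± 0.53 in GFP- cells, and the latter was 6.31 without AKVPL GFP- replicate 2. The sort difference was -2.39 ± 0.44 in AKVPSL. In AKVPL it was -1.14 ± 0.59, and -0.25 without that library. The summed level of 8 fibroblast genes was 1167 to 2409 CPM in AKVPSL GFP- and 177.0 to 914.4 CPM in AKVPSL GFP+. In AKVPL it was 3631 to 7932 CPM in GFP- and 483.1 to 1022 CPM in GFP+. The part of fibroblasts in the sort differences of Tff1 was not tested.

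Tff2 encodes trefoil factor 2, the trefoil of neck cells (Gene ID 21785, chromosome 17, 31141062 to 31144282), and its group means were between 1.63 and 3.19 CPM. Its levels were 1.58, 1.67, 1.56 and 2.27 CPM in AKVPL GFP+ replicates 1 to 4 and 1.35, 4.85, 0.531 and 1.27 CPM in AKVPL GFP-. In AKVPSL they were 1.44, 1.21, 2.03 and 1.85 CPM in GFP+ and 2.82, 3.34, 3.9 and 2.7 CPM in GFP-. The genotypes overlapped in both sorts, and AKVPSL GFP- lay above AKVPSL GFP+ (log2 difference of GFP+ over GFP- -0.97 ± 0.43). Other log2 differences of Tff2 were -0.11 ± 0.43 between genotypes in GFP+ cells, 0.63 ± 0.43 between genotypes in GFP- cells and -0.23 ± 0.44 between sorts in AKVPL. Without AKVPL GFP- replicate 2 the last pair became 1.61 and 0.75. Tff1 and Tff2 lie side by side on chromosome 17, next to Tff3, the trefoil of intestinal goblet cells. Among GFP+ cells Tff3 had 0.625 ± 0.22 CPM in AKVPL and 16.4 ± 4.74 CPM in AKVPSL (SD, n = 4), a log2 difference of 4.69 ± 0.30 (edgeR adjusted p = 2.99e-10). In GFP- cells Tff3 stood at 0.29 ± 0.101 and 2.73 ± 0.686 CPM (3.24 ± 0.34, edgeR adjusted p = 2.15e-07). Within AKVPSL the trefoils thus differed in the sort in which they were higher: Tff3 in GFP+ cells (2.58 ± 0.26, edgeR adjusted p = 1.27e-06), Tff1 and Tff2 in GFP- cells. On the other side Tmprss3, a membrane protease, had group means of at most 0.222 CPM.

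Gkn1 encodes gastrokine 1, a secreted protein of pit cells (Gene ID 66283, chromosome 6, 87345653 to 87350915). Its levels in AKVPL were 51.3, 53.2, 59.9 and 71.7 CPM in GFP+ replicates 1 to 4 and 23.9, 40.4, 26.0 and 29.2 CPM in GFP-. In AKVPSL they were 2.5, 3.08, 3.86 and 4.89 CPM in GFP+ and 3.15, 3.2, 8.73 and 7.09 CPM in GFP-. AKVPL libraries lay above AKVPSL libraries in both sorts, and the log2 difference of AKVPSL over AKVPL was -4.05 ± 0.32 in GFP+ cells and -2.44 ± 0.31 in GFP- cells. The sort difference of Gkn1 was 0.98 ± 0.28 in AKVPL, where the sorts did not overlap, and -0.64 ± 0.31 in AKVPSL, where they did. The difference between those sort effects was -1.62 ± 0.42.

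Gkn2 encodes gastrokine 2, which forms a pair with trefoil factor 1 in pit cells (Gene ID 66284, chromosome 6, 87373365 to 87379494), and it was near the limit of detection. It had 0.661, 0.773, 0.781 and 0.609 CPM in AKVPL GFP+ and 0.46, 2.61, 0.193 and 0.508 CPM in AKVPL GFP-. In AKVPSL it had 0.0, 0.234, 0.133 and 0.246 CPM in GFP+ and 0.0328, 0.0954, 0.443 and 0.121 CPM in GFP-, which are 0 to 10 counts per library. AKVPL GFP+ lay above AKVPSL GFP+ (log2 difference of AKVPSL over AKVPL -2.28 ± 0.81), and the GFP- groups overlapped (-2.54 ± 0.81). The Gkn2 value in GFP- cells was -1.17 without AKVPL GFP- replicate 2 and -3.55 without AKVPSL GFP- replicate 3. The sorts overlapped in both genotypes: the sort difference of Gkn2 was -0.47 ± 0.68 in AKVPL (0.89 without AKVPL GFP- replicate 2) and -0.21 ± 0.98 in AKVPSL (0.81 without AKVPSL GFP- replicate 3).

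Gkn3 encodes gastrokine 3, a secreted protein of neck cells in the mouse (Gene ID 68888, chromosome 6, 87383319 to 87388935), and was the highest of the 10 in every group per length (on the RPKM scale below). Its levels were 508.8, 461.4, 518.7 and 459.5 CPM in AKVPL GFP+ replicates 1 to 4 and 278.5, 269.9, 309.9 and 213.0 CPM in AKVPL GFP-. In AKVPSL they were 348.1, 389.0, 491.8 and 577.4 CPM in GFP+ and 161.5, 198.6, 168.8 and 160.8 CPM in GFP-. GFP+ libraries lay above GFP- libraries in both genotypes, with log2 differences of 0.86 ± 0.14 in AKVPL and 1.39 ± 0.14 in AKVPSL. Between genotypes GFP+ cells overlapped (-0.11 ± 0.14), and AKVPSL was lower in GFP- cells (-0.64 ± 0.14). Gkn3 and Gkn1, both near-neighbours of Gkn2, thus had different patterns: Gkn1 in AKVPSL GFP+ was 16.6-fold below AKVPL GFP+ by the fit, while the corresponding fold of Gkn3 was 1.08. No other protein-coding gene is annotated between Gkn1, Gkn2 and Gkn3. The flanking genes were Antxr1, an anthrax toxin receptor, which was lower in AKVPSL GFP- than in AKVPL GFP- (25.1 ± 6.44 against 71.2 ± 6.2 CPM, log2 difference -1.50 ± 0.26, edgeR adjusted p = 0.000122), and Bmp10, a cardiac growth factor with group means of at most 0.377 CPM.

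Sox2 encodes a transcription factor of the foregut and of the stomach (Gene ID 20674, chromosome 3, 34649995 to 34652461). It was low in AKVPL, at 0.661, 0.185, 0.351 and 0.554 CPM in GFP+ replicates 1 to 4 and 0.567, 0.221, 0.193 and 0.508 CPM in GFP-, which are 4 to 23 counts per library. In AKVPSL it stood at 4.28, 4.49, 5.83 and 4.31 CPM in GFP+ and 3.37, 4.29, 3.23 and 2.94 CPM in GFP-. All AKVPSL libraries lay above all AKVPL libraries, with log2 differences of 3.43 ± 0.34 in GFP+ cells and 3.23 ± 0.36 in GFP- cells. The sorts overlapped in both genotypes (0.25 ± 0.41 in AKVPL and 0.45 ± 0.28 in AKVPSL). Glial cells also express Sox2, and 3 of 5 glial and Schwann cell genes could be tested, of which 1 was higher and 1 lower in AKVPSL in each sort. The median log2 difference of the 3, AKVPSL over AKVPL, was -0.64 in GFP+ cells and -0.22 in GFP- cells. Of all genes, 53.0% differed in GFP+ cells and 62.7% in GFP- cells by the same test. The 1 that was higher, against the direction of the median, was S100b, a calcium-binding protein of glia and other cells, named after its values were seen. S100b went from 0.94 ± 0.169 CPM in AKVPL to 4.05 ± 1.33 CPM in AKVPSL among GFP- cells (log2 difference 2.13 ± 0.27, edgeR adjusted p = 2.04e-06). Among GFP+ cells it went from 1.74 ± 0.233 to 3.58 ± 0.763 CPM (1.02 ± 0.25, edgeR adjusted p = 0.00191). Sox10 and Gfap were at 0 in AKVPSL GFP-, and Gfap in AKVPSL GFP+. The summed level of the 5 genes was 3.93 to 5.76 CPM (GFP-) and 4.3 to 10.8 CPM (GFP+) over the AKVPL libraries, and 5.14 to 7.97 CPM (GFP-) and 5.72 to 7.46 CPM (GFP+) over those of AKVPSL. The part of glial cells in the Sox2 difference was not tested.

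Anxa10 encodes annexin A10, a calcium-dependent lipid-binding protein of gastric epithelium (Gene ID 26359, chromosome 8, 62057042 to 62123193). Its levels were 5.69, 7.2, 4.3 and 3.1 CPM in AKVPL GFP+ replicates 1 to 4 and 6.9, 6.95, 4.93 and 5.84 CPM in AKVPL GFP-. In AKVPSL they were 0.891, 0.703, 2.63 and 5.46 CPM in GFP+ and 7.01, 2.81, 6.78 and 12.9 CPM in GFP-. Groups overlapped in all 4 comparisons, and the AKVPSL libraries spread more widely than the AKVPL libraries. The sort difference was -0.27 ± 0.53 in AKVPL and -1.64 ± 0.55 in AKVPSL, and the genotype difference was -1.11 ± 0.55 in GFP+ cells and 0.26 ± 0.53 in GFP- cells. Without AKVPSL GFP+ replicate 4, the highest Anxa10 library of its group, the sort difference in AKVPSL was -2.40 and the genotype difference in GFP+ cells -1.86.

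Counted over all 10 genes, the 4 GFP+ and the 4 GFP- libraries did not overlap for 4 genes in AKVPL (Pgc, Gkn1, Gkn3 and Ctse, all higher in GFP+) and for 4 in AKVPSL (Pgc and Gkn3 higher, Tff1 and Tff2 lower). Among all 18072 genes, 41.2% did not overlap between the sorts in AKVPL (24.7% higher in GFP+, 16.5% lower) and 39.1% in AKVPSL (19.5% higher, 19.6% lower). Between genotypes 7 genes did not overlap in GFP+ cells (Pgc, Tff1 and Sox2 higher in AKVPSL, Lipf, Gkn1, Gkn2 and Ctse lower), where the share of all genes was 51.3% (25.0% higher, 26.3% lower). In GFP- cells 7 did not overlap (Pgc, Tff1 and Sox2 higher in AKVPSL, Lipf, Gkn1, Gkn3 and Ctse lower), where that share was 53.2% (27.3% higher, 25.9% lower). The shares are given as background, and since the 10 were chosen on these levels nothing is read from their counts. The comparisons share groups of libraries and are not independent of each other.

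**Figure D2:**
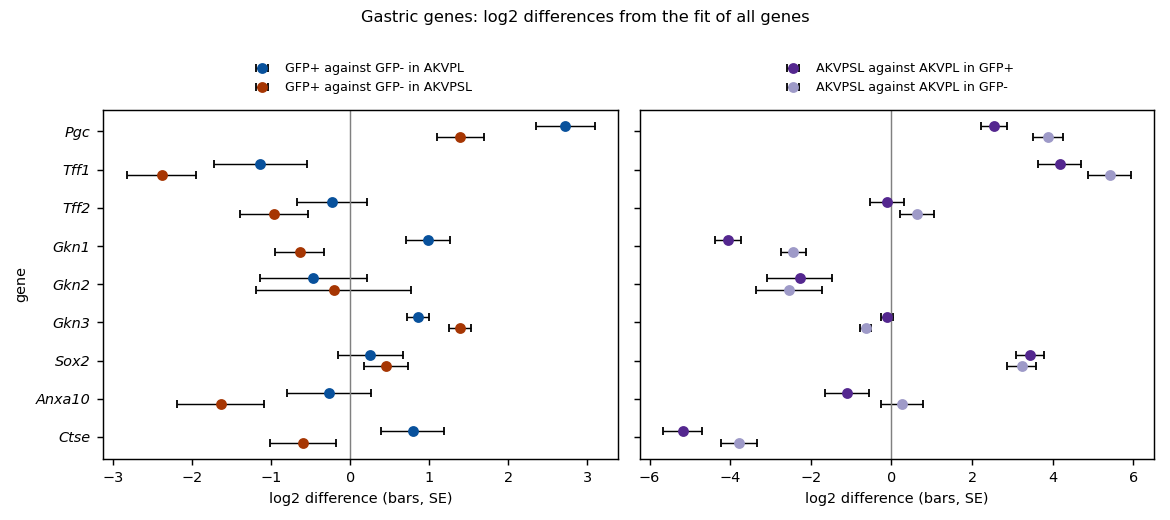
Log2 differences (estimate and SE) of 9 gastric genes between sorts (left) and between genotypes (right), from 1 fit over 16 libraries. Lipf is left out because it has at most 1 count in each AKVPSL group. Genotype differences run from -5.18 (Ctse) to 5.41 (Tff1) and sort differences from -2.39 (Tff1) to 2.72 (Pgc).

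Levels of different genes were compared on the deposited RPKM scale, reads per 1e3 bases of gene model and 1e6 reads. In AKVPL GFP+ the order was Gkn3 (559.1 ± 36.3 RPKM, SD, n = 4), Ctse (276.8 ± 28.1), Gkn1 (44.1 ± 7.09) and Lipf (16.6 ± 9.61), with no overlap among them. Pgc, Tff2, Anxa10 and Tff1 followed at 5.5 to 2.0 RPKM, and from Lipf on each of these overlapped with the next, and Gkn2 (0.827 ± 0.103) and Sox2 (0.162 ± 0.0772) stood below them. AKVPL GFP- had the same genes in the first 4 places and Sox2 in the last. In AKVPSL GFP- the leading genes were Gkn3 (198.3 ± 20.8 RPKM) and Tff1 (182.9 ± 61.6), which overlapped, followed by Pgc (12.2 ± 1.7) and Ctse (11.6 ± 4.3), which also overlapped. In AKVPSL GFP+ Gkn3 (517.7 ± 119.0 RPKM) stood apart from Tff1 (35.0 ± 16.6) and Pgc (31.8 ± 3.93), which overlapped, and from Ctse (7.71 ± 5.47), which came next. In both AKVPSL groups Gkn2 and Lipf were the lowest. The main difference in order between the genotypes was that Ctse, Gkn1 and Lipf followed Gkn3 in AKVPL, and Tff1 and Pgc followed it in AKVPSL.

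**Figure D3:**
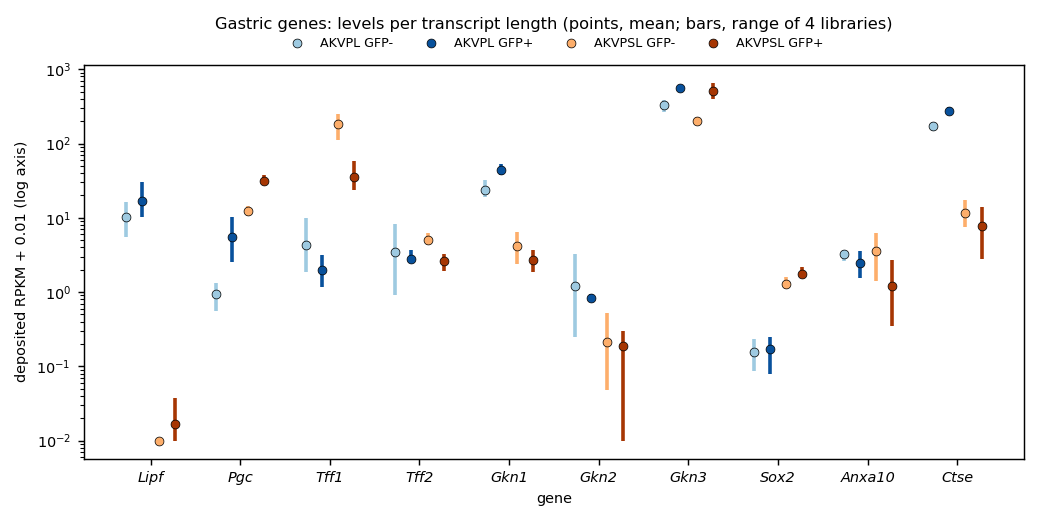
Deposited RPKM plus 0.01 of the 10 gastric genes on a log axis, with a point at the mean of 4 libraries and a bar over their range. Gkn3 is the highest in every group, and Lipf lies lowest in both AKVPSL groups.

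Within groups a minority of the pairs of genes varied together. Each library's log2(CPM + 0.5) was set against its group mean, and the deviations were correlated over the 16 libraries. This is a description that mixes library, depth and cell composition. Over all 45 pairs of the 10 genes the median r was 0.06, with 11 pairs over 0.5 and 1 under -0.5. Without AKVPL GFP- replicate 2 the median was 0.16, with 10 pairs over 0.5. The pairs named here were picked from the highest. Pairs with Lipf, which has no reads in 7 of the AKVPSL libraries, are not named. Anxa10 and Ctse had r = 0.88, also without AKVPL GFP- replicate 2, and in AKVPSL GFP+ both were low in replicates 1 and 2 and higher in 3 and 4. Tff1 and Gkn1 had r = 0.73 (0.72 without that library). Tff2 and Gkn2 had r = 0.87, which was 0.50 without AKVPL GFP- replicate 2, and Tff1 and Tff2 had 0.72, which was 0.35 without it.

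Genes whose pattern over the 16 libraries was nearest to each member were found by the root mean square (RMS) difference of centred log2(CPM + 0.5). The offset of 0.5 flattens levels near 0, so genes that are near by this measure can have unlike folds. Gkn3 had the closest, Cfi, a complement protease (RMS 0.16), then Mmp7, a matrix protease of Paneth cells and tumours (0.20), and Itln1, an intestinal lectin (0.23). Sox2 was nearest to Isl1, a LIM homeobox factor (0.24), Fbxo36 (0.25) and Oplah (0.28). Between AKVPL GFP+ and AKVPSL GFP+, Isl1 went from 0.00718 to 2.54 CPM as group means and Sox2 from 0.438 to 4.73 CPM. That likeness thus rests in part on the offset. Gkn1 was nearest to Lgals3bp, a galectin-binding protein (0.34), Usp18, an interferon-induced protease (0.38), and Zfp2 (0.39). Ctse was nearest to Chsy3, a chondroitin sulphate synthase (0.43), Hoxa9, a factor of the posterior body axis (0.45), and Ltf, lactoferrin (0.48). Lipf was nearest to Sh2d7 (0.45), Frmpd1 (0.47) and Myo15b (0.48), which all stood at under 8 CPM in AKVPSL as group means, against 22.7 to 199.7 CPM in AKVPL. Pgc (Elapor1, 0.61), Tff1 (Kcnk2, a potassium channel, 0.86) and Anxa10 (Gsn, gelsolin, 0.50) had less close neighbours. The nearest of Tff2 were Snord99, Rps13 and Rpl36 (0.38 to 0.42), which share sequence with other copies and whose counts are uncertain.

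Stomach genes outside the 10 were then tested, grouped by cell type, with 52 listed genes in the files of which 41 could be tested. AKVPSL differed from AKVPL in GFP+ cells for 29 of the 41 (16 higher and 13 lower, edgeR adjusted p under 0.05), against 53.0% of all 18072 genes (24.9% higher, 28.1% lower). In GFP- cells it differed for 30 (17 higher and 13 lower), against 62.7% of all genes (32.0% higher, 30.7% lower). The median log2 difference of the 41 was -0.06 in GFP+ cells and 0.35 in GFP- cells, where the median of all genes was -0.05 and 0.00. Genes on these stomach lists, some of which other epithelia also make, were thus both higher and lower in AKVPSL, as were the 10 themselves.

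Among 10 pit cell genes, 5 were higher and 1 lower in AKVPSL GFP+, and 7 were higher and none lower in AKVPSL GFP-. Of all genes, 24.9% were higher and 28.1% lower in AKVPSL GFP+, and 32.0% higher and 30.7% lower in AKVPSL GFP-. Cldn18, the claudin of stomach tight junctions, rose from 2.35 ± 0.597 to 27.4 ± 4.15 CPM in GFP+ cells (SD, n = 4, log2 difference 3.52 ± 0.31, edgeR adjusted p = 6.62e-08) and by 4.33 ± 0.34 in GFP- cells (edgeR adjusted p = 1.44e-08). Vsig1, an adhesion protein of the glandular stomach, rose by 1.37 ± 0.16 and 2.40 ± 0.17 (edgeR adjusted p = 7.55e-07 and 1.18e-09). Cldn18 and Vsig1 thus moved between the genotypes as Tff1 did, and opposite to Gkn1, which pit cells also make. Muc5ac, the main pit cell mucin, was low throughout, at 2.18 to 5.82 CPM as group means.

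Of 9 neck and gland mucous cell genes, 6 were higher and 2 lower in AKVPSL GFP+, and 5 were higher and 2 lower in AKVPSL GFP-. Of all genes, 53.0% passed in GFP+ cells and 62.7% in GFP- cells. Wfdc2, a protease inhibitor, had the widest difference, from 2.9 ± 2.07 CPM in AKVPL GFP+ to 303.9 ± 13.1 in AKVPSL GFP+ (log2 difference 6.79 ± 0.57, edgeR adjusted p = 2.1e-07), and 7.53 ± 0.59 in GFP- cells (edgeR adjusted p = 9.06e-08). Aqp5, a water channel, rose by 1.38 ± 0.13 and 2.46 ± 0.13 (edgeR adjusted p = 3.41e-08 and 3.75e-11). Muc6, the gland mucin, fell from 125.7 ± 26.2 to 8.35 ± 7.35 CPM in GFP+ cells (-3.93 ± 0.53, edgeR adjusted p = 2.56e-05) and by -4.91 ± 0.58 in GFP- cells (edgeR adjusted p = 5.49e-06). Clu, clusterin, which injured epithelium also makes, fell in both sorts.

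Among chief cell genes, of which 4 could be tested, 1 was higher and 2 were lower in AKVPSL in each sort. Counts of so few genes are not read against the 53.0% (GFP+) and 62.7% (GFP-) of all genes that passed. Cblif, gastric intrinsic factor, which chief cells make in mice, rose with Pgc: 0.405 ± 0.218 to 11.5 ± 9.05 CPM in GFP+ cells (log2 difference 4.79 ± 0.66, edgeR adjusted p = 1.63e-05) and 0.0687 ± 0.0597 to 2.13 ± 0.948 CPM in GFP- cells (4.87 ± 0.91, edgeR adjusted p = 0.00025). Cym, chymosin, a milk-clotting protease, fell, as Lipf was lower: 3.93 ± 1.49 to 0.4 ± 0.191 CPM in GFP+ cells (-3.31 ± 0.37, edgeR adjusted p = 4.82e-07). Of the parietal cell genes 4 could be tested, and 1 was higher and 3 lower in AKVPSL in each sort, beside the same shares of all genes. Atp4a, the large subunit of the acid pump, fell from 7.88 ± 0.921 to 1.53 ± 0.227 CPM in GFP+ cells (-2.37 ± 0.22, edgeR adjusted p = 3.69e-08), while its partner Atp4b had at most 0.0229 CPM as a group mean. Slc26a9, a chloride channel of gastric surface cells, rose by 1.97 ± 0.14 in GFP- cells (edgeR adjusted p = 1.78e-09). Of the gastric endocrine genes Ghrl and Hdc were lower in AKVPSL GFP- and passed no threshold between genotypes in GFP+ cells. Hdc had a mean of 30.0 CPM in AKVPL GFP- and of 9.72 to 10.4 CPM in the other groups. The summed level of leukocyte genes was also highest in AKVPL GFP- (3364 to 6252 CPM). The part of leukocytes in the Hdc difference was not tested.

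Of 12 regulators of stomach and foregut that could be tested, 3 were higher and 5 lower in AKVPSL GFP+, and 3 were higher and 4 lower in AKVPSL GFP-. Of all genes, 53.0% passed in GFP+ cells and 62.7% in GFP- cells, so nothing is read from these counts. Pdx1, a factor of the antrum, duodenum and pancreas, rose with Sox2, from 0.879 ± 0.303 to 4.57 ± 0.814 CPM in GFP+ cells (log2 difference 2.33 ± 0.26, edgeR adjusted p = 4.84e-07) and from 0.56 ± 0.099 to 4.04 ± 0.921 CPM in GFP- cells (2.81 ± 0.28, edgeR adjusted p = 1.1e-07). Irx5, a homeobox factor, rose by 1.07 ± 0.09 and 0.83 ± 0.09 (edgeR adjusted p = 1.42e-08 and 3.6e-07). Onecut2 fell by -1.97 ± 0.19 and -1.47 ± 0.19 (edgeR adjusted p = 1.84e-07 and 4.37e-06), and Gata4 by -0.92 ± 0.12 and -0.96 ± 0.12 (edgeR adjusted p = 2.72e-06 and 1.44e-06). Of 13 intestinal identity genes tested, 6 were higher and 3 lower in AKVPSL in each sort, beside the same shares of all genes. Cdx2, the intestinal homeobox factor that opposes SOX2 in the embryo, rose with Sox2: its levels were 1.35, 1.89, 1.29 and 1.38 CPM in AKVPL GFP+ replicates 1 to 4 and 42.6, 39.8, 31.6 and 46.6 CPM in AKVPSL GFP+ (log2 difference 4.75 ± 0.28, edgeR adjusted p = 2.59e-10). In GFP- cells Cdx2 rose from 2.05 ± 1.25 to 31.4 ± 3.53 CPM (3.90 ± 0.28, edgeR adjusted p = 2.39e-09). The levels of both factors were higher in the AKVPSL libraries, and bulk values do not show whether the same cells express them.

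**Figure D4:**
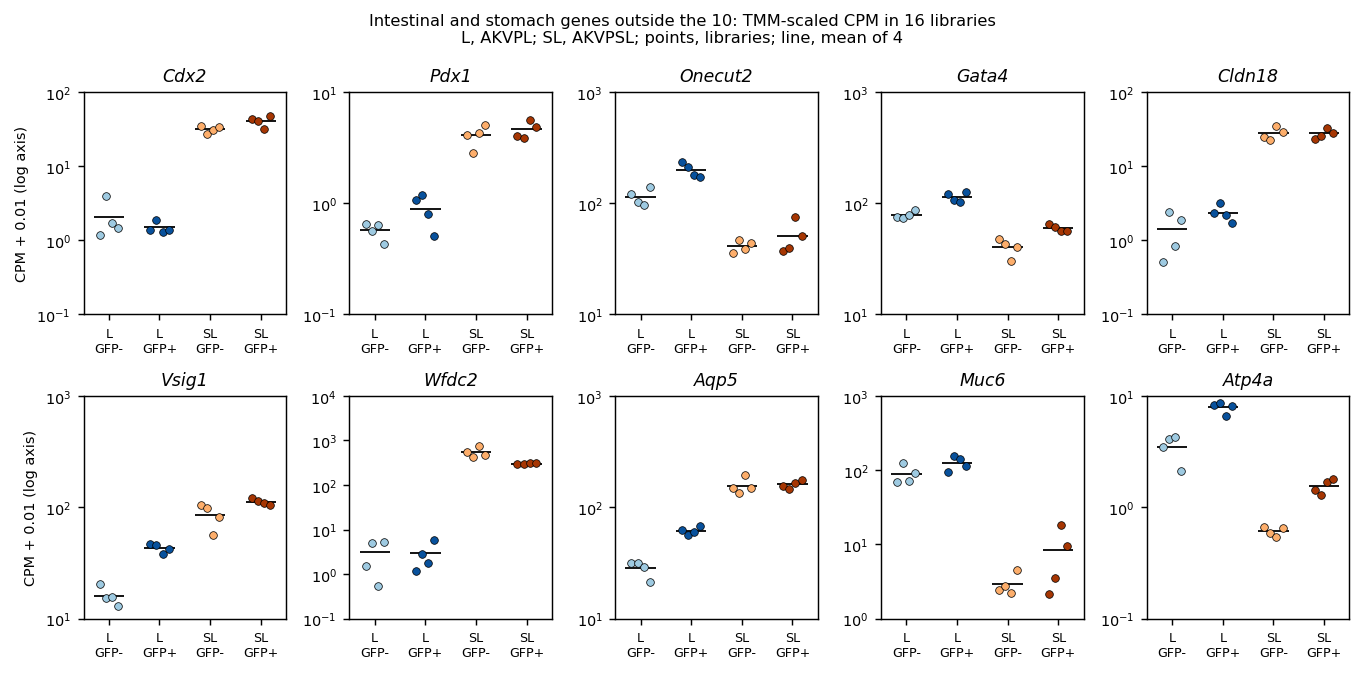
Levels of 10 stomach and intestinal genes outside the members, picked from those named in the text after their values were seen, in CPM plus 0.01 on log axes, with a point per library and a line at the mean of 4. Cdx2, Pdx1, Cldn18, Vsig1, Wfdc2 and Aqp5 are higher in both AKVPSL groups (SL), and Onecut2, Gata4, Muc6 and Atp4a are lower there.

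Between the sorts, 18 of the 41 other stomach genes passed the threshold in AKVPL (14 higher and 4 lower in GFP+, edgeR adjusted p under 0.05), against 39.1% of all genes (22.6% higher, 16.5% lower). With scaling on 18 epithelial genes the split was 10 higher and 7 lower. In AKVPSL 22 passed (16 higher and 6 lower), against 47.0% of all genes (22.4% higher, 24.6% lower). Muc1, a membrane mucin of pit cells, rose in GFP+ cells in both genotypes, by 1.35 ± 0.17 and 1.40 ± 0.17 log2 units (edgeR adjusted p = 1.03e-05 in AKVPL and 7.67e-06 in AKVPSL), as Pgc and Gkn3 were higher there. Atp4a rose by 1.16 ± 0.21 and 1.33 ± 0.24 (edgeR adjusted p = 0.000262 and 0.000287). Psca, a surface antigen of pit cells, fell by -1.32 ± 0.35 and -2.85 ± 0.36 (edgeR adjusted p = 0.00561 and 1.2e-05), the direction in which Tff1 and Tff2 stood in AKVPSL. In AKVPL, libraries of the 2 sorts that share a number had deviations that correlated with r from 0.14 to 0.5, and whether they are pairs is not known. With that number as a block, Cblif (2.51, edgeR adjusted p = 0.00957), Cldn18 (0.92, 0.0181) and Foxa2 (0.34, 0.0377), which did not pass without it, also passed.

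The sort effect differed between the genotypes for 14 of the 41 (6 higher and 8 lower in AKVPSL, edgeR adjusted p under 0.05), against 20.8% of all genes (7.02% higher, 13.7% lower), and with scaling on epithelial genes the split was 10 higher and 4 lower. Krt7, a keratin of simple glandular epithelium, had the smallest adjusted p, with a sort effect of -0.17 ± 0.09 in AKVPL and -1.14 ± 0.09 in AKVPSL (difference -0.97 ± 0.12, edgeR adjusted p = 5.24e-05). Among the members, the same difference was estimated at -1.34 ± 0.48 for Pgc, -1.25 ± 0.73 for Tff1, -1.39 ± 0.58 for Ctse, -1.37 ± 0.76 for Anxa10, -0.74 ± 0.61 for Tff2, 0.26 ± 1.24 for Gkn2, 0.20 ± 0.51 for Sox2 and 0.53 ± 0.20 for Gkn3. Without AKVPL GFP- replicate 2 it was -2.14 for Tff1, -1.72 for Tff2 and -1.10 for Gkn2, without AKVPSL GFP- replicate 3 it was 1.27 for Gkn2, and without AKVPSL GFP+ replicate 4 it was -2.13 for Anxa10.

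Markers of other tissues that could carry some of these genes were read beside them. The mouse forestomach is lined by squamous epithelium, and 7 of 8 tested squamous genes were lower in AKVPSL GFP+ and 5 of 8 in AKVPSL GFP- (where 1 was higher), with summed levels of 308.7 to 445.0 CPM over the AKVPL libraries and 92.3 to 191.1 CPM over the AKVPSL libraries. Of all genes, 28.1% were lower in AKVPSL GFP+ and 30.7% in AKVPSL GFP-. Much of the AKVPL sum of squamous genes came from 2 listed genes, Krt14 and Pitx1 (160.2 and 124.1 CPM in AKVPL GFP- replicate 1). In AKVPSL GFP- replicate 1 they had 3.37 and 0.0655 CPM. Trp63, also listed, had a group mean of at most 2.25 CPM. Lipf, Gkn1 and Ctse were lower in the AKVPSL libraries too, and whether they share cells with the squamous genes was not tested. The summed level of 8 genes of pancreatic acinar cells was higher in AKVPSL, at 3.6 to 5.71 CPM (GFP-) and 10.1 to 17.2 CPM (GFP+), than in AKVPL, at 1.49 to 2.51 CPM (GFP-) and 2.1 to 2.97 CPM (GFP+), as the levels of Pgc and Pdx1 were. Of 4 acinar genes that could be tested, 2 were higher and 1 lower in AKVPSL GFP+, and 2 were higher and none lower in AKVPSL GFP-. Of all genes, 24.9% and 32.0% were higher there. Clps, colipase, stood at 1.11 ± 0.283 CPM in AKVPL and 10.7 ± 2.77 CPM in AKVPSL among GFP+ cells (log2 difference 3.26 ± 0.26, edgeR adjusted p = 6.04e-09), and differed by 2.16 ± 0.29 among GFP- cells (edgeR adjusted p = 4.25e-06). Most of the AKVPSL GFP+ sum, whose median was 11.3 CPM, was thus Clps. Prss2, a trypsinogen, had 0.0175 ± 0.0205 and 0.906 ± 0.549 CPM among GFP+ cells (edgeR adjusted p = 5.64e-06), the first of them 2 counts over the group. Clps and Prss2 are the 2 that were higher in AKVPSL GFP+, and they were named after their values were seen. Cela3b was at 0 in all 16 libraries, and Cpb1 and Pnlip were at 0 in some groups. The part of acinar cells in the levels of Pgc and Pdx1 was not tested. The summed level of 5 endothelial genes ran from 286.6 to 519.6 CPM (AKVPL) and 55.7 to 260.7 CPM (AKVPSL) among GFP- libraries and from 41.4 to 71.1 and 8.69 to 29.8 CPM among GFP+ libraries, with none of the 5 at 0 in a whole group. All 5 endothelial genes, 8 of 9 leukocyte genes and 7 (AKVPL) or 8 (AKVPSL) of 8 fibroblast genes were lower in GFP+ than in GFP- cells by edgeR's test. Of all genes, 16.5% were lower in GFP+ cells in AKVPL and 24.6% in AKVPSL. The part of endothelial cells, leukocytes and fibroblasts in the sort differences of the 10 genes was not tested.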

How the data were processed

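RNA was sequenced from sorted tumour cells in 16 libraries, 4 per group, grouped by title. Per the submitters' processing notes, the authors aligned with GSNAP to GRCm38. Per the file headers, a deposited count gives the uniquely aligned reads of a gene model, and the deposited RPKM is adjusted by a size factor. For gene lengths, strand and versions the sources used here say nothing. Symbols came from a RefSeq table (31049 of 36528 IDs, 85.0%, matched). The rest, 1.38% to 1.88% of the counts per library, were kept in the totals and the fit.

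Counts were fitted with edgeR 4.0.16 (R 4.3.3) by quasi-likelihood, with 1 model over 16 libraries, TMM scaling (factors 0.936 to 1.09) and filterByExpr. Tests were two-sided with Benjamini-Hochberg adjustment over 18072 genes, with a threshold of 0.05, and each SE was derived from the estimate and its F statistic. The fit was tested on simulated data. The 10 members and all gene lists were chosen with earlier results of these data known, so members have no test. Named genes were all members and, per list, up to 4 each way per comparison with the smallest adjusted p, plus stomach genes with a mean over 10 CPM, the nearest genes of each member, and the neighbours of the Gkn and Tff genes. Smad4, S100b, Clps, Prss2, Krt14, Pitx1, Trp63, Muc5ac, Atp4b, Pga5, Chia1, Sst, Barx1, Cdx1 and Gpa33 were named after their values were seen. Not every gene the rule takes is printed. Some items are not reported here.

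Deviations from group means were correlated between the GFP+ and GFP- libraries that share a number. In AKVPL r was 0.5, 0.27, 0.44 and 0.14, and in AKVPSL it was 0.59, 0.44, 0.01 and 0.32. These values do not set the genotypes apart, and whether the number pairs libraries is not known. The main fit used no block. For the sort comparisons the alternative with a replicate block used the number within both genotypes. No library was a copy of another: over the 24 replicate pairs, chi-square per degree of freedom was 9.05 to 73.6. Alternatives were other scalings (DESeq2 1.42.0 size factors, library totals, 18 epithelial genes), DESeq2, limma 3.58.1 on log2(RPKM + 0.1) and log2(RPKM + 1), no filter, a replicate block, the groups compared alone, and leaving out each library.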

Additional observations from a re-analysis of the deposited data

Results flagged for a closer look

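Of 236 sets of 4 libraries examined, 16 had a library far from the other 3, and chance gives about 1 in 20. AKVPL GFP- replicate 2 was the high library in 6 of them: Tff1 at 5.07 CPM (others 0.931 to 1.49), Gkn2 at 2.61 (0.193 to 0.508), A4gnt, which adds the terminal sugar of gland mucin, at 0.956 (0.0 to 0.0354), Capn8, a protease of pit cells, at 0.441 (0.0847 to 0.145), Isx, an intestinal homeobox factor, at 4.08 (0.0354 to 0.242), and Muc2, the goblet cell mucin, at 17.6 (0.354 to 0.508). Among members, Lipf was at 0.0411 CPM in AKVPSL GFP+ replicate 4 (1 count, others 0), Tff2 at 2.27 in AKVPL GFP+ replicate 4 (1.56 to 1.67) and Sox2 at 5.83 in AKVPSL GFP+ replicate 3 (4.28 to 4.49). In AKVPL GFP+, Cblif was low in replicate 3 (0.0781 CPM), and Cdx2 (1.89 in replicate 2) and Cym (6.15 in replicate 1) were high. In AKVPSL GFP+, Hnf4a was low in replicate 4 (150.0 CPM), and Lgals4 (312.4) and Osr1 (0.534) were high there, as was Klf4 in replicate 3 (554.9).

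The effect of the sort differed between genotypes for 19 of the stomach and intestinal genes named by the rule, by edgeR's test of the difference itself, given here as the log2 effect in AKVPSL minus that in AKVPL. Opposite effects that each passed the threshold were found for Ghrl (2.08, from -1.15 in AKVPL to 0.94 in AKVPSL, edgeR adjusted p = 0.00531) and Mal2 (-0.90, from 0.56 to -0.34, edgeR adjusted p = 0.00138). Differences in favour of AKVPSL were also found for Muc2 (5.00), Isx (4.33), A4gnt (3.99), Bhlha15 (1.56), Tff3 (1.45), Kcnq1 (0.92), Gata6 (0.65) and Cd44 (0.52), with edgeR adjusted p from 0.000511 (Kcnq1) to 0.0388 (Tff3). Without AKVPL GFP- replicate 2 those of Muc2 (1.40, edgeR adjusted p = 0.144), Isx (1.23, 0.346), A4gnt (0.19, 0.973) and Tff3 (1.18, 0.141) did not pass. Differences in favour of AKVPL were found for Psca (-1.53), Slc26a9 (-1.43), Aqp5 (-1.07), Vsig1 (-1.02), Krt7 (-0.97), Cdh17 (-0.90), Gsta4 (-0.89), Lgals4 (-0.83) and Foxq1 (-0.45), with edgeR adjusted p from 5.24e-05 (Krt7) to 0.0349 (Psca). With epithelial scaling, those that did not pass included Mal2 (-0.53, edgeR adjusted p = 0.0541), Vsig1 (-0.69, 0.0543) and Psca (-1.19, 0.087). These are not all that were lost: the other stomach genes called in favour of AKVPL were 8 in the main fit and 4 with that scaling.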

How the results depend on the processing

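All 172 recomputed counts of genes stayed within 1.5 times their main value. Leaving out each library in turn gave 17 to 19 other stomach genes called between sorts in AKVPL, 17 to 23 in AKVPSL, 26 to 30 between genotypes in GFP+, 29 to 33 in GFP- and 12 to 15 for the difference of sort effects. Members without overlap ran from 4 to 6 in each sort comparison and from 7 to 8 in each genotype comparison. With the replicate block the called counts were 21, 27, 29, 30 and 18 in the same order. Epithelial scaling moved the median of all genes from 0.14 to -0.10 for the sort in AKVPL, from 0.00 to -0.28 between genotypes in GFP- cells and from -0.10 to 0.24 for the difference of sort effects. Of 1056 recomputed member differences 1009 moved by less than 1 SD between replicates. The fold of low members shrank with log2(RPKM + 1): Sox2 between genotypes in GFP+ cells was 1.24 there against 3.43 by counts. Of 6076 recomputed differences of other genes 5773 kept their direction and side of the threshold, 188 lost it and 110 gained it. Those that reversed were, without AKVPL GFP- replicate 2, Isx for the sort in AKVPL (2.16, and as low as -1.36 without another library), Isx for the genotype in GFP- cells (0.14, as low as -3.38) and Muc2 for the genotype in GFP- cells (3.17, as low as -0.82), Sox21 between genotypes in GFP- cells with epithelial scaling (-0.02), and Atp4a for the difference of sort effects with log2(RPKM + 1) (-0.36). The cause was not tested. Levels under about 1 CPM rest on few counts, so differences of Gkn2 are uncertain.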
